A study of Mus musculus with 12 samples.

Results

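The 6 genes described here sense or respond to blood flow, and were followed across endothelial cells of 2 vascular beds: the transcription factors Klf2 and Klf4, the mechanosensitive cation channel Piezo1, and the connexins Gja1 (Cx43 gene), Gja4 (Cx37 gene) and Gja5 (Cx40 gene). They are 6 of the 27825 genes in the deposited table, taken by symbol alone, and each has 1 row. Messenger RNA was measured by bulk RNA-seq in cells sorted for yellow fluorescent protein from male ROSA26-eYFP+/+ Cdh5-CreERT2+ mice, in which tamoxifen lets a Cre recombinase driven by the Cdh5 promoter switch on the reporter in endothelial cells. All mice ate a tamoxifen diet for 2 weeks, starting when 6 weeks old, and were then given, at 8 weeks, either normal chow (5.8% fat) or food holding 60.0% fat, called the high fat diet, over the next 12 to 13 weeks. There are 4 groups of 3 libraries: mesentery (the sheet of tissue through which the gut receives its vessels) on chow, mesentery on the high fat diet, epididymal fat on chow and epididymal fat of mice fed high fat. Each library pooled tissue of 6 mice. Libraries lettered A, B or C bear the numbers 50, 51 and 87 in that order for chow, 88, 52 and 53 for high fat, and the mesentery and epididymal libraries of 1 letter and diet share a number. The extraction protocol speaks of 2 independent replicates, so p-values measure the spread between these libraries, which may be partly technical.

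Laminar flow over endothelium is sensed at the cell surface, among other routes by PIEZO1, and the MEKK3, MEK5 and ERK5 kinases acting through MEF2 factors switch on Klf2 and Klf4. Both factors are closely related and share many targets, with anti-inflammatory and anticoagulant genes rising and adhesion genes falling in quiescent, flow-adapted endothelium. Connexins assemble into hexameric channels that dock between neighbouring cells as gap junctions: Cx37 and Cx40 are typical of arterial endothelium, Cx40 carries much of the electrical coupling along arterioles, and Cx43 is also abundant in smooth muscle and fibroblasts.

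The stretches of 250 bases before the start of Klf2, Klf4 and Gja5 are shown because Klf2 and Klf4 varied together below and Gja5 differed most between the tissues. Sequences come from RefSeq on GRCm38.p6, run 5′ to 3′ along the gene, and mark matches in capitals. They lie at chr8:72318812-72319061 on the plus strand (Klf2), chr4:55532476-55532725 on the minus strand (Klf4) and chr3:97032152-97032401 on the plus strand (Gja5).
Klf2: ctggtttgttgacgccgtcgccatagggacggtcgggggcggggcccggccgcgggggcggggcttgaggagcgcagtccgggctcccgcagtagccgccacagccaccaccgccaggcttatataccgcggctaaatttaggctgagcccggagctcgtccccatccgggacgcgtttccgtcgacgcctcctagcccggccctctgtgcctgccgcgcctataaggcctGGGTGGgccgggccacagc
Klf4: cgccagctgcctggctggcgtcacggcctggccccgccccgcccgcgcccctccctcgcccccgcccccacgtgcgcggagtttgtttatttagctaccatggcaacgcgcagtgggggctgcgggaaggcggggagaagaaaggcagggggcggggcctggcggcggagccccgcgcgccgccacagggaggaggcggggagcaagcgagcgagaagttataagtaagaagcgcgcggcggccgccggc
Gja5: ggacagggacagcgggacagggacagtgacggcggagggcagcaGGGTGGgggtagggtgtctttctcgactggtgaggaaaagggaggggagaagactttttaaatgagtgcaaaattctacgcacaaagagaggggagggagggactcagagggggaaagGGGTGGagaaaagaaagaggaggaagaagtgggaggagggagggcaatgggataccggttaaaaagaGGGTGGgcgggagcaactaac
The letters searched on both strands were CCACCC (KLF and SP factors), TGANTCA (AP-1), and CTATTTATA and CTAAAAATA (MEF2). CCACCC, read as GGGTGG on the strand shown, was found 3 times in Gja5 and 1 time in Klf2. The share of all 32851 such stretches with at least 1 CCACCC was 28.1%. TGANTCA was found among the 6 genes in Gja1 alone, 19 bases before its start, against 6.75% of all stretches. Neither MEF2 sequence was in any of the 6 windows, and they were in 0.387% and 0.469% of all. Only these exact MEF2 letters were searched, so other MEF2-type spellings, such as ctaaatttag in the Klf2 stretch, were not counted. G and C made up 71.2% of the Klf2 stretch and 74.0% of the Klf4 stretch, against a median of 52.4% over all, and 56.4% of that of Gja5. The submitters' processing notes name the build mm39, so these positions are not those of the files. A match is a description of the letters and not a measured site.

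All 6 genes were well covered, with between 181 and 6655 recovered reads per library. Per kilobase of the longest coding transcript, Klf2 stood highest in all 12 libraries: its level was 2621 ± 621 normalized counts per kilobase (SD, n = 3) in mesentery on chow and 1279 ± 148 in epididymal fat of mice fed high fat. Gja4 and Gja1 came next in 11 of 12 libraries, in either order. On the same scale in mesentery on chow Gja4 had 1086 ± 173, Gja1 819 ± 82.2 and Klf4 743 ± 161, so that Gja1 and Klf4 did not differ beyond their spread. Gja5 at 93.0 ± 35.5 and Piezo1 at 62.1 ± 8.91 were the lowest. In epididymal fat of mice fed high fat Gja5 reached 306 ± 85.4, beside Klf4 at 273 ± 90.9, a difference within their spread. With all annotated exons counted as length, Gja1 dropped below Klf4 in 11 of 12 libraries, because its annotated exons cover 10257 bases against 3182 in its longest coding transcript.

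Sequencing depth was between 8348897 and 25397963 reads assigned to genes per library. The pan-endothelial genes Pecam1 and Cdh5 were at 12330 and 3842 normalized counts on average in mesentery on chow, and at 5083 and 3120 in epididymal fat of mice fed high fat. Markers of other cells differed with tissue and diet, and those of smooth muscle and fibroblasts were higher in every epididymal library than in any mesenteric one: summed over 16 smooth muscle and pericyte genes, levels ran from 3078 to 3662 in mesentery on chow, 3757 to 6157 in mesentery on high fat, 20539 to 32152 in epididymal fat on chow and 9555 to 17399 in epididymal fat on high fat, with Lmod1 at 0 in a mesentery library of each diet. Over 13 fibroblast genes the same ranges were 20118 to 26856, 18176 to 25417, 37584 to 110286 and 75589 to 117789, with none at 0. For 14 macrophage and leukocyte genes they were 1667 to 8274, 4685 to 25598, 6521 to 88807 and 141908 to 356027, with Adgre1 and Mpeg1 at 0 in a mesentery library on chow and Fcgr1 in one on high fat. Over 14 adipocyte genes they were 14003 to 18907, 18705 to 38564, 166206 to 225275 and 15987 to 66135, with none at 0. Over 11 lymphatic endothelial genes they were 1587 to 13448, 3038 to 5037, 23057 to 38014 and 12184 to 18648, with Foxc2 and Nts at 0 in a mesentery library on chow and Prox1 and Foxc2 in one on high fat. The part of these cells in the tissue differences below was not tested. In bulk samples fewer cells of a type and less RNA per cell cannot be told apart.

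The first question was how the 2 vascular beds differ. Klf2 and Klf4 were lower and Gja5 was higher in epididymal than in mesenteric cells, on the scaling of the deposited table. Averaged over the diets, Klf2 was lower by 0.83 log2 units (log2 difference -0.83 ± 0.18 SE) and Klf4 by 0.94 (-0.94 ± 0.20), while Gja5 was higher by 1.52 ± 0.25. The limma adjusted p was 0.00474 for Klf2, 0.0042 for Klf4 and 0.000852 for Gja5. These 3 of 6 genes passed at an adjusted p under 0.05, against 21.8% of all 22238 genes tested.

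Klf2, the flow-induced factor with the highest level of the set, had 4888, 5963 and 3672 normalized counts in replicates A, B and C of mesentery on chow, and 4118, 2962 and 4309 on the high fat diet. Epididymal cells had 3012, 2751 and 1673 on chow and 2048, 2501 and 2538 under high fat feeding. The tissues did not overlap on either diet, as was so for 28.7% of all tested genes on chow and 26.4% under high fat feeding, and mesentery on chow held the 2 highest values. Means ± SD (n = 3) were 4841 ± 1146 and 2478 ± 709.9 on chow, mesentery first, and 3796 ± 729 and 2363 ± 273 on the high fat diet.

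**Figure D1:**
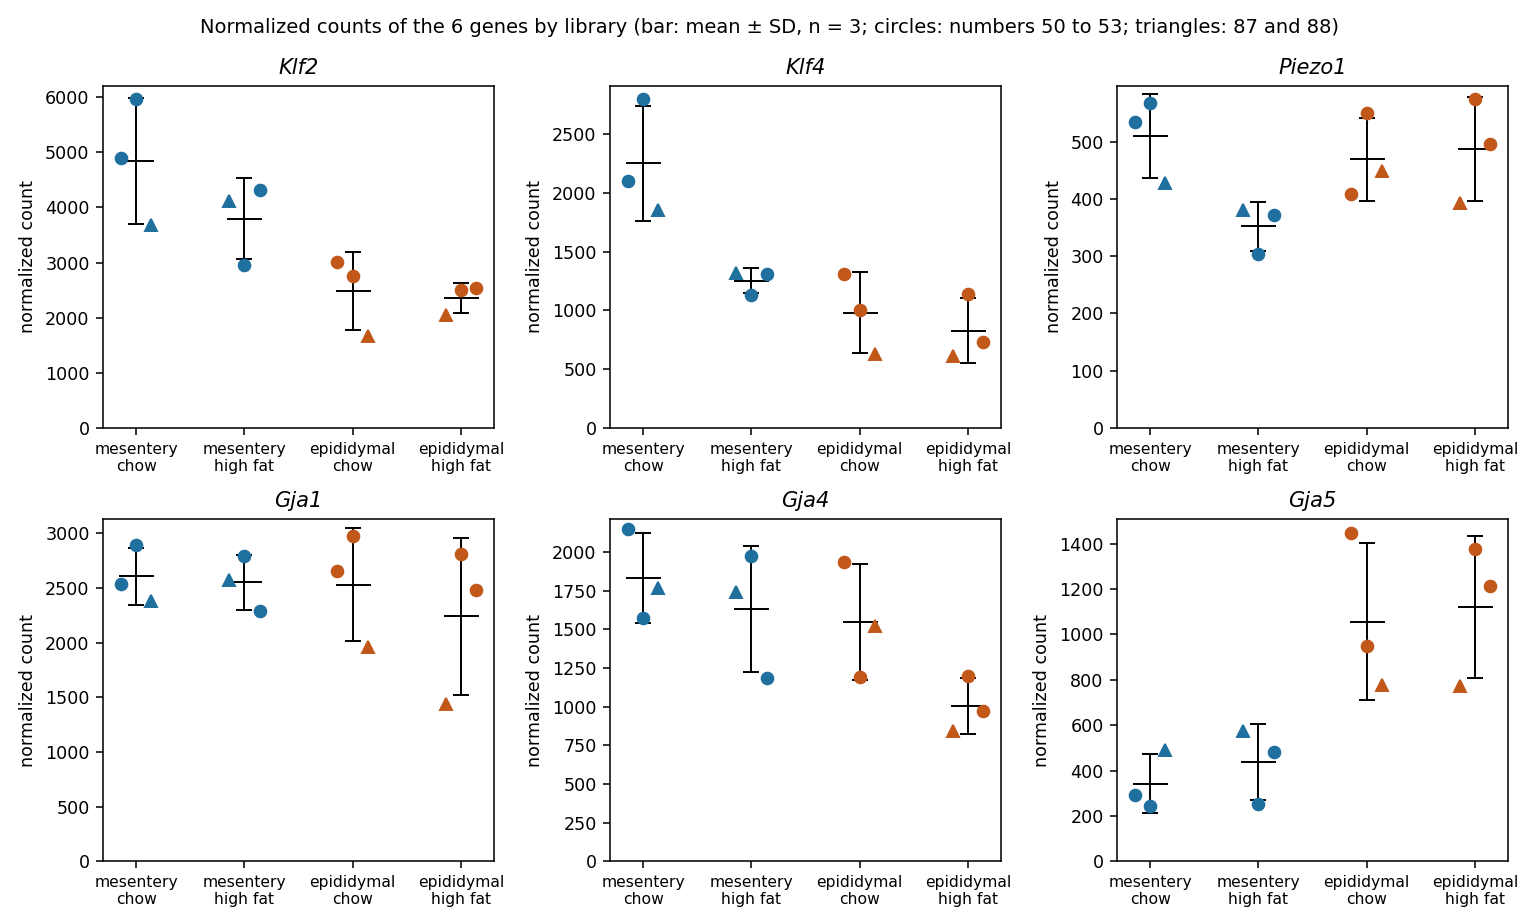
Normalized counts (vertical axes, from 0) of the 6 genes in each of the 12 libraries, by tissue and diet; bars are means ± SD (n = 3), circles are libraries numbered 50 to 53 and triangles those numbered 87 and 88. The mesenteric Klf2 points lie between 2962 and 5963 and the epididymal ones between 1673 and 3012, while Gja5 runs from 243 to 575 in mesentery and from 772 to 1447 in epididymal fat.

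Klf4, the second flow-induced factor, had 2099, 2796 and 1856 normalized counts in mesentery on chow (A, B and C in order) and 1311, 1006 and 625 in epididymal fat on chow. On the high fat diet the mesenteric libraries had 1314, 1129.6 and 1311 and the epididymal ones 612, 1138 and 734. The tissues were apart on chow, as for 28.7% of all tested genes, whereas under high fat feeding epididymal replicate B lay just above mesenteric replicate B. Means ± SD (n = 3) on chow were 2250.2 ± 488 in mesentery and 981 ± 344 in epididymal fat, and on the high fat diet 1252 ± 106 and 828 ± 275.

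Gja5, the arterial connexin that forms Cx40, was low in mesentery, with 292, 243 and 489 normalized counts on chow and 575, 251 and 482 under high fat feeding in replicates A, B and C. Epididymal cells had 1447, 947 and 777 on chow and 772, 1378 and 1214 under high fat feeding. Every epididymal library was above every mesenteric one. Within a diet, 28.7% of all tested genes on chow and 26.4% under high fat feeding also had no overlap of the tissues. That share was not computed over all 12 libraries together. Mean levels ± SD (n = 3) were 341 ± 130.1 against 1057 ± 348 on chow, a ratio of means of 3.10, and 436 ± 167 against 1121 ± 313 on the high fat diet, a ratio of 2.57.

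The libraries numbered 87 and 88 showed a smaller Gja5 difference than the others. Within a shared number the log2 difference of Gja5 was 2.31 for 50, 1.96 for 51, 2.45 for 52 and 1.33 for 53, but 0.67 for 87 and 0.42 for 88. Averaged over the diets the difference was 2.01 in the libraries numbered 50 to 53 alone (limma adjusted p = 0.000234) and 0.55 in the libraries numbered 87 and 88. For Klf2 the same values were -0.71 (adjusted p = 0.00666) and -1.07, and for Klf4 -0.74 (adjusted p = 0.0119) and -1.34. A fit over all 12 libraries with a tissue difference for each number range, added after these values were seen, gave adjusted p-values by limma for the libraries numbered 87 and 88 of 0.344 for Gja5, 0.0292 for Klf2 and 0.0121 for Klf4, so Gja5 did not pass there, against 5.83% of all genes called. The difference between the ranges was -1.47 for Gja5 (limma adjusted p = 0.179), -0.37 for Klf2 (adjusted p = 0.596) and -0.59 for Klf4 (adjusted p = 0.408). None of the 6 genes passed in that test, against 0.00899% of all genes. Across the 6 numbers, Gja5 was higher in epididymal fat in 6 of 6, Klf2 lower in 6 of 6 and Klf4 lower in 5 of 6. The share of all genes with the same sign in all 6 was not computed, here or for Gja4 below.

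On chow alone, Klf2 (log2 difference -0.98 ± 0.25 SE, limma adjusted p = 0.0213), Klf4 (-1.24 ± 0.28, adjusted p = 0.0111) and Gja5 (1.64 ± 0.36, adjusted p = 0.00868) passed, 3 of 6 genes against 12.8% of all genes. On the high fat diet Gja5 passed (1.40 ± 0.36, limma adjusted p = 0.0289), 1 of 6 against 8.34%, while Klf2 (-0.67 ± 0.25, adjusted p = 0.133) and Klf4 (-0.64 ± 0.28, adjusted p = 0.206) did not. In the test of the difference between the diets itself none of the 6 genes passed, against 0.0045% of all genes (1 gene), with log2 values between -0.43 and 0.60 and a lowest unadjusted p of 0.0699. By edgeR on the recovered reads only Gja5 passed on chow (adjusted p = 0.0199, against 0.0927 for Klf2 and 0.0565 for Klf4) and none on the high fat diet, whereas all 3 passed averaged over the diets (adjusted p = 0.0269 for Klf2, 0.0278 for Klf4 and 0.00256 for Gja5). Klf2 on chow also did not pass with TMM scaling (adjusted p = 0.0927), limma without a trend (0.07), only the groups compared (0.0624) or centring on Cdh5 (0.064). Scaled to the same total, Gja5 did not pass on the high fat diet (limma adjusted p = 0.0862) and Klf2 did (0.0193). Single libraries decided some of these calls: on chow, Klf2 did not pass without mesenteric replicate A (limma adjusted p = 0.0736) or B (0.0861) or without epididymal replicate C (0.0684), Klf4 without mesenteric replicate B (0.0506) or Gja5 without epididymal replicate A (0.0517). Gja5 on the high fat diet did not pass without mesenteric replicate B (limma adjusted p = 0.136) or epididymal replicate B (0.106) or C (0.122). Averaged over the diets, the 3 genes passed whichever library was left out.

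**Figure D2:**
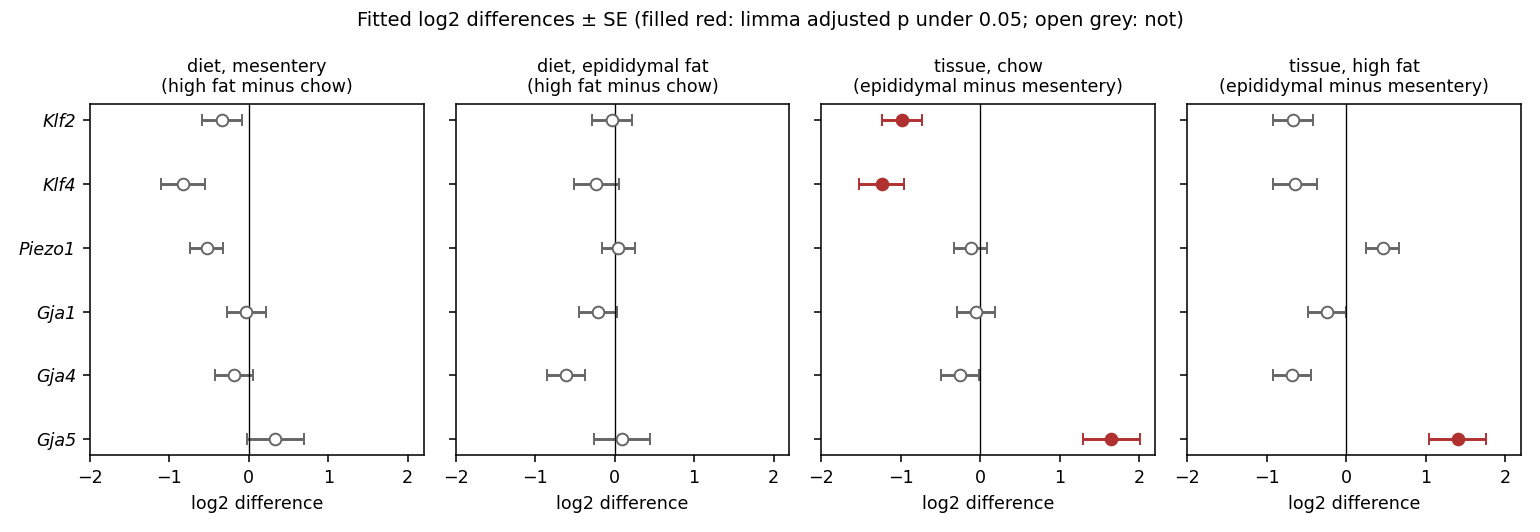
Fitted log2 differences ± SE (horizontal axes) of the 6 genes for diet in each tissue and tissue on each diet; filled red points passed at a limma adjusted p under 0.05. Klf2, Klf4 and Gja5 passed between the tissues on chow, Gja5 alone on the high fat diet, and none between the diets.

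The other connexins and Piezo1 were closer between the tissues. Gja4 (Cx37) was lower in epididymal fat in 6 of 6 shared numbers, by 0.47 log2 units on average (log2 difference -0.47 ± 0.17 SE, limma adjusted p = 0.0617), and did not pass. It did pass with DESeq2 (adjusted p = 0.0353), with a minimum mean of 50 (limma adjusted p = 0.0434) and without mesenteric high fat replicate C (0.0225) or epididymal chow replicate A (0.0398). It had 2148, 1575 and 1768 normalized counts in mesentery on chow and 1741, 1978 and 1185 under high fat feeding, against 1934, 1190.25 and 1522 and 843, 1197 and 974 in epididymal fat. The ranges overlap on both diets, and the epididymal high fat libraries hold the lowest value.

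Gja1 (Cx43) was similar in all 4 groups: 2537, 2893 and 2384 normalized counts in mesentery on chow, 2575, 2793 and 2289 in mesentery on high fat, 2650.25, 2977 and 1963 in epididymal fat on chow and 1436, 2806 and 2481 in epididymal fat on high fat. The 2 low values are the epididymal libraries numbered 87 and 88. Its tissue difference averaged over the diets was -0.15 ± 0.17 (limma adjusted p = 0.611), with an opposite sign, 0.06, in the libraries numbered 50 to 53.

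Piezo1 had 535, 568 and 428 normalized counts in mesentery on chow and 381, 304 and 372.5 under high fat feeding, against 409, 549.9 and 449 and 392, 574 and 497 in epididymal fat. Mesentery on the high fat diet was the lowest group and did not overlap with mesentery on chow (as for 9.61% of all tested genes) or with epididymal fat of mice fed high fat (26.4%). Its tissue difference was 0.17 ± 0.15 averaged over the diets (limma adjusted p = 0.483) and 0.46 ± 0.21 on the high fat diet (adjusted p = 0.226), so it did not pass.

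The tissue differences of Klf2 and Klf4 depend on what they are measured against. The deposited scaling sets most genes equal. On it, averaged over the diets, 10 of 16 pan-endothelial genes were lower in epididymal fat and 1 higher, against 21.8% of all genes passing. Their median log2 difference was -1.005 against -0.01 for all genes tested. Flt1 (-2.13), Emcn (-2.12) and Sox18 (-1.71) had the largest decreases, and Cldn5, a tight junction gene, was higher by 3.37. Pecam1 was lower by 0.96 (log2 difference -0.96, limma adjusted p = 0.000526), and Cdh5 was nearly level (0.04, adjusted p = 0.927).

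With each library centred on those 16 genes, the median of all genes moved to 0.70, and Klf2 (-0.11, limma adjusted p = 0.687) and Klf4 (-0.23, adjusted p = 0.307) no longer passed. Gja5 grew to 2.24 (limma adjusted p = 2.13e-05), and Piezo1 (0.88, adjusted p = 0.00018) and Gja1 (0.56, adjusted p = 0.00159) passed as higher. On the high fat diet under this centring Klf2 (0.21) and Klf4 (0.24) changed sign without passing, while on chow Klf4 (-0.70, limma adjusted p = 0.0391) passed and Klf2 (-0.44, adjusted p = 0.235) did not. By construction the differences relative to the median of all genes are nearly the same under both. Centred on Cdh5 alone, chosen after the data were seen, the averaged values were -0.86 for Klf2 (limma adjusted p = 0.0133), -0.98 for Klf4 (adjusted p = 0.00494) and 1.49 for Gja5 (adjusted p = 0.00529). Gja5 was thus higher in epididymal fat under all 3 references, and the drop of Klf2 and Klf4 was close to that of the median pan-endothelial gene.

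**Figure D3:**
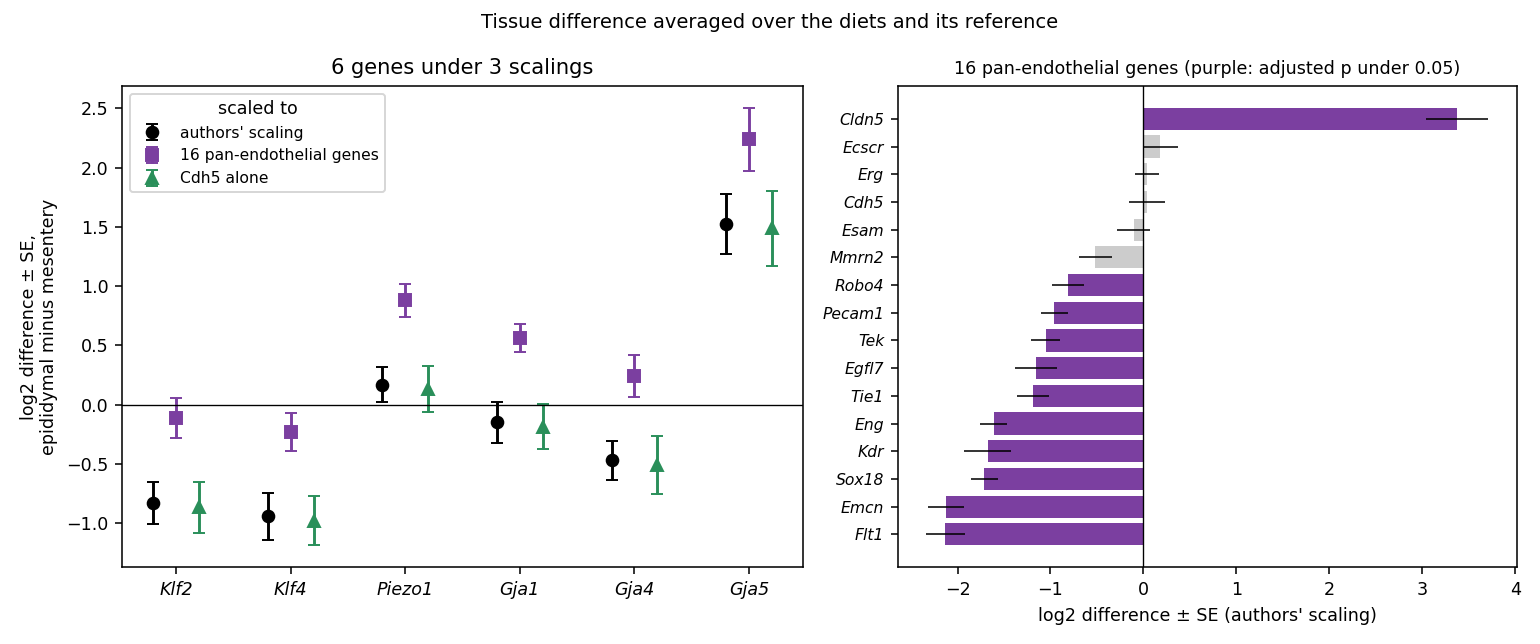
Left, log2 differences ± SE (epididymal minus mesentery, averaged over the diets) of the 6 genes under the authors' scaling, centred on 16 pan-endothelial genes and centred on Cdh5; right, log2 differences ± SE of those 16 genes, purple where the limma adjusted p was under 0.05. Klf2 moves from -0.83 to -0.11 and Gja5 from 1.52 to 2.24 between the first 2 scalings.

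The balance among the connexins, which does not depend on the scaling of a library, lay nearer to Gja5 in epididymal fat. The log2 ratio of Gja5 to Gja4 counts was -2.47 ± 0.55 (SD, n = 3) in mesentery on chow and -1.96 ± 0.90 under high fat feeding, against -0.57 ± 0.35 and 0.13 ± 0.23 in epididymal fat, with no overlap between the tissues on either diet. The share of other gene pairs whose ratios did not overlap was not computed. Permuted within diets, the tissue difference of 1.99 had p = 0.005 (exact permutation test, two-sided, the smallest it can give). Its adjusted p was 0.06 over 24 tests of 4 ratios, so it did not pass. At that smallest p it could pass only if more of these ratio tests had come near it, so not passing says little. The log2 ratio of Gja1 to Gja5 differed by -1.67, again with p = 0.005 (exact permutation test, adjusted p = 0.06), and that of Gja1 to Gja4 by 0.32 (exact permutation p = 0.16). Within 1 diet the test of 3 against 3 libraries cannot go below 0.1. The ratio of Klf4 to Klf2 differed by -0.11 between the tissues (exact permutation p = 0.405) and by -0.34 between the diets (p = 0.035, exact permutation, adjusted p = 0.24).

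Within groups, Klf2 and Klf4 varied together. Their deviations from the group means had a Pearson r of 0.83 over the 12 libraries (exact permutation within groups, p = 0.00309, adjusted p = 0.0463 over 15 pairs) and a Spearman rho of 0.79 (p = 0.00694, exact permutation, adjusted p = 0.104). Without the 2 libraries farthest from the median of Klf2, r was 0.71. None of the other 14 pairs passed; the next highest r was 0.73 for Klf4 and Gja1 (exact permutation p = 0.0656). Gja4 and Gja5, both arterial genes, had an r of 0.14. Depth and number range differed between the libraries of each group, and both genes of a pair were read from the same libraries. The part of these in the correlations was not tested.

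**Figure D4:**
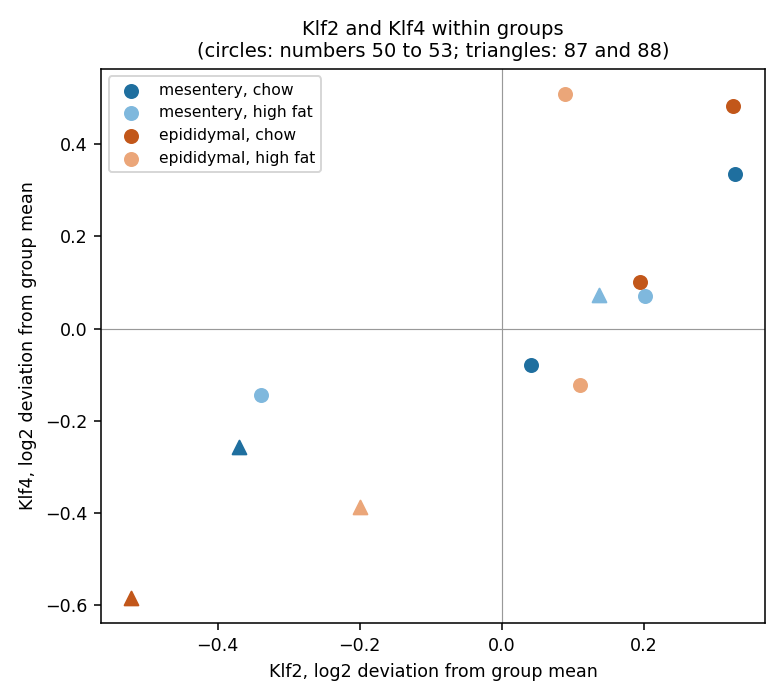
Deviation of Klf4 from its group mean (vertical) against that of Klf2 (horizontal), both in log2 units, for the 12 libraries; colours are groups and triangles the libraries numbered 87 and 88. Pearson r was 0.83 and the points farthest to the left are chow libraries numbered 87.

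The second question was what the high fat diet changed. None of the 6 genes passed in mesentery, against 0.0135% of all genes (3 genes), in epididymal fat, against 0.549% (122 genes), or averaged over the tissues, against 0.549% again. At an unadjusted p under 0.05 the limma count was 2 of 6 in mesentery, 1 in epididymal fat and 2 averaged. Of all 22238 genes 1367, 1543 and 1848 were under it, in the same order. By adjusted p, edgeR and DESeq2 also called none of the 6. In mesentery Klf4 went from a mean of 2250.2 on chow to 1252 on the high fat diet without overlap of the libraries, which 9.61% of all tested genes also showed (log2 difference -0.83 ± 0.28 SE, limma adjusted p = 0.654). Piezo1 there went from 510.4 ± 73.2 to 352 ± 42.4 (SD, n = 3), also without overlap (-0.53 ± 0.21, limma adjusted p = 0.718). In epididymal fat Gja4 went from 1549 ± 372 to 1005 ± 179 (-0.61 ± 0.24, limma adjusted p = 0.498), and its libraries overlapped, the lowest on chow (1190.25) lying just under the highest on the high fat diet (1197). Klf2 and Gja1 differed by less than 0.35 log2 units in size in either tissue (Klf2 -0.34 and -0.03, Gja1 -0.03 and -0.21), and Gja5 by 0.34 and 0.09.

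On the deposited scaling, genes listed here as regulators of Klf2 and Klf4 were lower in epididymal fat or did not pass. Averaged over the diets 21.8% of all 22238 genes passed by limma, the share to set beside the list counts of that contrast below. Centred on the pan-endothelial genes 9086 of the 22238 passed, 8572 of them higher. The 17 regulators are the ERK5 and MEF2 cascade, Heg1 and the CCM proteins that restrain it, Hdac5, Hdac7, Rap1a, Rap1b, Rasip1, Sirt1 and Prkaa1. Promoting and restraining genes are mixed among them, so their count has no single direction for Klf2 and Klf4. Of the 17, 7 were lower, none higher and 10 did not pass averaged over the diets by limma (4 lower and none higher by edgeR). Their median log2 difference was -0.42 against -0.01 for all genes. Hdac7 (-1.44), a repressor that binds MEF2, Heg1 (-1.01), the receptor that holds the CCM complex, and Krit1 (-0.72), a CCM protein, had the largest decreases. Centred on the pan-endothelial genes the split turned to 8 higher and 1 lower.

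Of 21 genes listed here as induced by flow or KLF2 and KLF4, 9 were lower, 6 higher and 6 did not pass, with a median of -0.12. Thbd, the thrombomodulin gene and a classic KLF2 target, was lower by 2.58 log2 units (-2.58), and the SMAD inhibitors Smad6 (-2.41) and Smad7 (-2.29) followed. Ptgis, prostacyclin synthase, was higher by 3.66, Ptgds, prostaglandin D synthase, by 3.38 and Cyp1b1, a cytochrome, by 2.74. Nos3, the endothelial nitric oxide synthase and another KLF2 target, differed by -0.12 (limma adjusted p = 0.581). The list thus split in both directions, and under centring on the pan-endothelial genes 11 were higher and 8 lower. Tek and Tie1 of this list are also among the pan-endothelial genes.

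Of 15 tested genes listed here as repressed by flow or KLF2 and KLF4, 9 were higher, none lower and 6 did not pass, with a median of 1.54. How flow acts on each listed gene, Ptgs2 included, was not measured here, so the list name does not settle its direction. Ptgs2, cyclooxygenase 2, was higher by 4.04 (limma adjusted p = 0.011, but 0.143 by edgeR), Bmp4, a growth factor, by 2.53 and F3, tissue factor, by 2.43. Adhesion genes split: Vcam1 was higher by 1.54 (limma adjusted p = 0.00573), whereas Icam1 differed by 0.14 (adjusted p = 0.743) and Edn1, endothelin 1, by -0.21 (adjusted p = 0.447). Under centring on the pan-endothelial genes 12 were higher and none lower, and centred on Cdh5 7 were higher and none lower. By edgeR 7 were higher and none lower. Several of these genes are also expressed by macrophages, fibroblasts or smooth muscle, whose markers were higher in the same libraries, and their part was not tested.

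**Figure D5:**
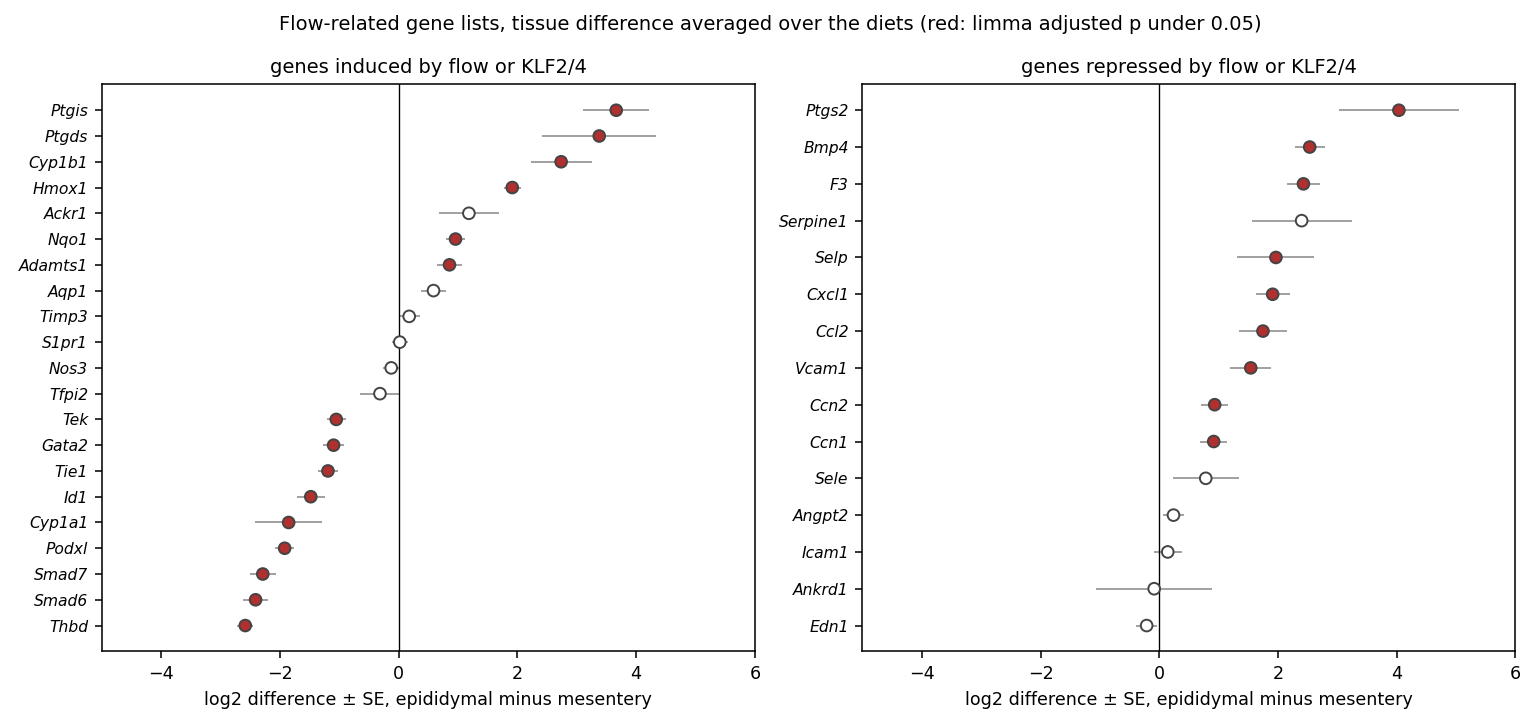
Log2 differences ± SE (epididymal minus mesentery, averaged over the diets) of genes listed as induced (left, 21 genes) and as repressed (right, 15 genes) by flow or KLF2 and KLF4. Red points passed at a limma adjusted p under 0.05. The induced genes run from -2.58 for Thbd to 3.66 for Ptgis, and 13 of the 15 repressed genes lie above 0.

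Among 22 other mechanosensing genes 10 were lower and 4 higher, with a median of -0.47, and 4 of the 22 (Cdh5, Eng, Kdr and Pecam1) are also pan-endothelial markers. Piezo2, the paralog of Piezo1, had a mean of 993 normalized counts in mesentery on chow and 773 under high fat feeding, against 108 and 127 in epididymal fat (log2 difference -3.30 ± 0.48 SE, limma adjusted p = 0.000327). That contrasts with 0.17 for Piezo1, although the difference between the paralogs was not tested. Kdr (-1.68) and Eng (-1.61) had the next largest decreases. Kcnj2, the flow-sensitive inward rectifier, was higher by 1.49 (limma adjusted p = 0.0441, but 0.15 by edgeR), Cav1, the caveolin gene, by 1.43 and P2rx4, an ATP-gated channel, by 1.12. P2rx4 was also higher in epididymal fat under high fat feeding, by 2.00 log2 units, the only gene of this list that passed between the diets within a tissue (limma adjusted p = 0.0131), but not by edgeR (adjusted p = 0.0571). In the same contrast all 14 macrophage and leukocyte genes had a positive log2 difference, with a median of 3.13, and 1 of them, Trem2, passed by limma (5.25, adjusted p = 0.0176). Their part in the P2rx4 difference was not tested. Centred on the pan-endothelial genes, 6 of the 22 were higher and 4 lower.

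Other members of both families were also mixed. Of 12 other KLF genes tested, 4 were lower, 1 higher and 7 did not pass: Klf12 (-1.76), Klf5 (-1.28) and Klf7 (-0.70) had the largest decreases, and Klf6 was higher by 0.55. By edgeR 2 were lower and none higher, and the calls of Klf7 (adjusted p = 0.101) and Klf6 (0.0929) were lost. On chow Klf15, a metabolic KLF, was higher by 2.22 in epididymal fat. Centred on the pan-endothelial genes 4 were higher and 1 lower. Of 20 other connexins and pannexins 10 were in the table and 6 were tested. Gjc1, the Cx45 gene, was lower by 0.73 (log2 difference -0.73, limma adjusted p = 0.00648), and Panx1, which forms ATP-releasing channels, was higher by 0.81. Under the same centring Gjc1 did not stay among the called genes. Among 8 connexin partners 2 were higher (Dbn1 by 2.89 and Cav1 by 1.43) and 2 lower (Ccn3 at -1.63 and Gjc1), and the scaffold Tjp1 differed by -0.29 (limma adjusted p = 0.244).

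Other arterial genes did not share the direction of Gja5 as a group. Of 20 arterial endothelial genes 4 were higher and 6 lower averaged over the diets, with a median log2 difference of -0.34: Mgp (3.88), Gkn3 (2.89) and Fbln5 (0.88) were the highest, and Tspan8 (-1.88), Fbln2 (-1.44) and Efnb2 (-1.33) the lowest. Of 10 venous genes 6 were higher and 1 lower, of 14 capillary genes 6 and 3, and of 11 lymphatic genes 7 and 1. Vcam1 and Selp of the venous list are also in the repressed list, and Ackr1 is also in the induced list. In the same contrast 15 of 16 smooth muscle and pericyte genes and 12 of 14 macrophage and leukocyte genes were higher and none lower. Of 13 fibroblast genes 11 were higher and 1 lower, and of 14 adipocyte genes 12 and 1. The part of those cells in the arterial, venous, capillary and lymphatic counts was not tested. Centred on the pan-endothelial genes the arterial split turned to 10 higher and 3 lower.

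KLF genes are also known to respond to tissue digestion, which here was done with actinomycin D, a blocker of transcription. Of 22 immediate early and dissociation genes 9 were higher in epididymal fat, 3 were lower and 10 did not pass, with a median of 0.48. Centred on the pan-endothelial genes 14 were higher and none lower. Egr2 (2.32), Myc (2.16) and Fos (1.74) had the largest increases, and the heat shock genes Hspa1b (-1.64) and Hspa1a (-1.54) and the AP-1 gene Fosl2 (-0.82, not called by edgeR, adjusted p = 0.0663) were lower. Summed levels of the list ran from 31605 to 55316 in mesentery on chow, 30917 to 46355 on the high fat diet, 33309 to 68708 in epididymal fat on chow and 45329 to 82183 on the high fat diet, and the part of digestion in the KLF levels was not tested.

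Between the diets few of these genes passed. Cyp1a1, a cytochrome of the induced list, had a log2 difference of -8.11 between the diets in mesentery (limma adjusted p = 0.00327) and -6.84 in epididymal fat (adjusted p = 0.00293), lower on the high fat diet in both. Nqo1, a quinone reductase, was lower in epididymal fat (-1.25, limma adjusted p = 0.0319), but did not pass by edgeR (adjusted p = 0.114). Hmox1 of the same list was higher by 0.88 in mesentery (limma adjusted p = 0.362) and 0.89 in epididymal fat (adjusted p = 0.0976), and passed in neither. Averaged over the tissues, 1 gene of the induced list was higher and 2 were lower by limma, against 0.549% of all genes passing. By edgeR 1 was higher and 1 lower. No other KLF gene, connexin, connexin partner, ERK5 or CCM gene or repressed gene passed in either tissue by limma.

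Genes whose log2 levels most resembled each of the 6 across the 12 libraries were sought among 9831 other genes with a mean of at least 100, as a description; these correlations contain the tissue difference and share library and depth. For Klf2 they were Synpo (r = 0.98), Eif4b (0.95) and Pogk (0.95), and for Klf4 Parp10 (0.96), Osbp (0.96) and Fhod1 (0.96). Synpo, an actin-binding protein gene, kept an r of 0.97 with Klf2 after group means were removed. Gja5 was most like Lnx1 (0.96), Pcolce (0.96) and Neu1 (0.96). Pcolce, which encodes an enhancer of procollagen processing and is typical of fibroblasts, had a mean of 505 normalized counts in mesentery on chow and 2229 in epididymal fat on chow. Gja4 was most like Sun1 (0.91), Gjc1 (0.89) and Repin1 (0.88), Gja1 like Cd81 (0.93), Ano6 (0.92) and Nsmce4a (0.92), and Piezo1 like Dgkd (0.90), Mrpl43 (0.89) and Ctla2a (0.86).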

How the data were processed

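The authors deposited 1 table of normalized counts (a non-negative signal for each gene); per the submitters' processing notes, STAR 2.7.9a, featureCounts, Subread, DESeq2 1.34.0 and mm39 were used by the authors, while the annotation and strand setting are not given in the sources used here. Every value (100.0% within 0.01) was a whole number of reads divided by a size factor, so reads were recovered and gave library totals of 8348897 to 25397963. Groups came from the sample titles. Tests used limma 3.58.1 under R 4.3.3 with a mean-variance trend on log2(normalized count + 1), a scale that understates the change of low genes, over 22238 genes with a mean of at least 10, with 4 group means and Benjamini-Hochberg adjustment within each of 7 contrasts. edgeR 4.0.16 and DESeq2 1.42.0 on the recovered reads were alternatives; between the tissues, averaged over the diets, edgeR called 3837 genes against 4848 by limma. The script was tested on simulated data. Transcript lengths came from GENCODE M21. Ratios and deviations of the 6 genes had exact permutation tests. The text names the 6 genes, and from each gene list up to 3 called genes each way with the largest change. It also names the 3 genes most like each of the 6, Pecam1 and Cdh5. Nos3, Icam1, Edn1, Vcam1, Tjp1, Hmox1, Sele and Selp were named after their values were seen. Other scalings, filters, pseudocounts, a replicate block and leaving out each library were tried; centring on Cdh5 was chosen after seeing the data. The 6 genes and the gene lists were chosen with earlier results of these data known.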

Additional observations from a re-analysis of the deposited data

Results flagged for a closer look

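Among all genes tested, 1 had a diet difference that differed between the tissues by limma: Kcnj8, a potassium channel gene of the smooth muscle and pericyte list and none of the 6 flow genes. Its mesenteric means were 108.9 normalized counts (chow) and 357 (high fat), its epididymal means 2778 (chow) and 738 (high fat). The log2 interaction was -3.68 (limma adjusted p = 0.00218). Groups of 3 libraries were not searched for single libraries far from the others.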

How the results depend on the processing

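Over the alternatives run, 3 or 4 of the 6 genes passed between the tissues averaged over the diets and none between the diets. They were not always the same genes: centred on the pan-endothelial genes the 3 were Gja5, Piezo1 and Gja1, all higher, without Klf2 and Klf4. With equal totals the 1 gene that passed between the tissues on the high fat diet was Klf2, lower, in place of Gja5. The count on chow was 1 with edgeR, 2 (without Klf2) with TMM scaling, without the trend, with only the groups compared or with either centring, and 1 to 3 without 1 library; on the high fat diet it was 3 with DESeq2 or centred on the pan-endothelial genes, 0 with edgeR, without the trend or centred on Cdh5 (added after seeing the data), and 0 to 2 without 1 library.

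Centred on the pan-endothelial genes, the sign turned for Klf2 (0.49), Klf4 (0.29) and Gja1 (0.31) between diets in epididymal fat, Gja1 (0.14) between diets in mesentery, Piezo1 (0.42), Gja1 (0.48) and Gja4 (0.28) between tissues on chow, Klf2 (0.21), Klf4 (0.24), Gja1 (0.65) and Gja4 (0.20) on high fat, and Gja1 (0.56) and Gja4 (0.24) averaged. Centred on Cdh5 it turned between diets for Klf2 (0.054), Gja1 (0.37) and Gja4 (0.21) in mesentery and Klf2 (0.32), Klf4 (0.12) and Gja1 (0.14) in epididymal fat. With equal totals it turned for Piezo1 (-0.092) and Gja5 (-0.048) between diets in epididymal fat and Gja1 between diets in mesentery (0.11) and tissues on chow (0.032). Gja1 also turned with TMM scaling (0.0016, diet in mesentery), edgeR (0.0061, tissue on chow) and numbers 50 to 53 (0.052, 0.062 and 0.057 for tissue on chow, on high fat and averaged). Without the 2 farthest libraries the correlation of Gja1 and Gja5 was -0.24. The cause of these turns was not tested beyond the shift of all genes that the centring itself makes.

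Without 1 library, signs turned within these ranges: between diets in epididymal fat, Gja1 -0.40 to 0.082, Gja5 -0.10 to 0.34, Klf2 -0.29 to 0.13, Klf4 -0.52 to 0.012 and Piezo1 -0.077 to 0.20; in mesentery, Gja1 -0.10 to 0.049 and Gja4 -0.34 to 0.032; between tissues, Gja1 -0.19 to 0.11 on chow and -0.43 to 0.053 on high fat; the ratio of Gja1 to Gja4 on chow -0.11 to 0.38 and of Klf4 to Klf2 on high fat -0.18 to 0.15.

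On chow, same-numbered libraries of the tissues had a mean correlation of 0.38 in their deviations, against -0.18 for differently numbered ones. On the high fat diet the means were -0.039 and 0.023. Single same-numbered pairs ran from -0.15 to 0.58, so the numbers were not taken to pair the libraries. With a replicate block for the number, 4 of 6 genes passed averaged over the diets, with Gja4 at -0.47 (limma adjusted p = 0.0291), 3 on chow and 1 on high fat. Over the alternatives the number of all genes called ranged from 1481 to 5196 between the tissues on chow (2843 as reported), 728 to 7315 on high fat (1854), 2880 to 9086 averaged (4848), 1 to 150 between the diets in mesentery (3), 1 to 563 in epididymal fat (122), 1 to 782 averaged (122) and 0 to 130 for the interaction (1). Averaged between the tissues, 2836 were higher and 2012 lower, and 8572 and 514 when centred on the pan-endothelial genes. With 3 libraries per group, only large differences could pass after adjustment.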
